A study of Rattus norvegicus with 6 samples.

Results

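The genes described here encode chromatin remodellers, histone deacetylases, histone lysine demethylases, the core of Polycomb repressive complex 2 (PRC2) and the main histone acetyltransferases, measured in rat heart cells after knockdown of eIF3m. Members were chosen by symbol: the numbered Chd, Smarca to Smarce, Hdac, Sirt and Kdm genes of the count files, the Arid1 and Arid2 genes, Ezh1 and Ezh2, plus Eed, Suz12, Ep300, Crebbp, Kat2a and Kat2b. Names such as Chd1l, Smarcad1 and Smarcal1, which carry no number at that place or further letters, fall outside the rule. The files held 68 such genes among 31011 listed genes, and 61 of the 68 passed the filter on low counts and were tested, among 12724 genes in all.

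The libraries came from cells labelled as myocardial and as NRVM, which the growth text traces to heart muscle of rat embryos kept in serum. A control siRNA had been given in 3 libraries and an siRNA against eIF3m, a subunit of a translation initiation factor, in 3 others. The extraction text also describes a feeding scheme with dexamethasone, isobutylmethylxanthine and insulin and does not say whether these cells received it. Strain, sex and the time after siRNA were not given in the labels. Nor do they state that replicates were separate cultures, and the p-values then reflect only how far these samples differ, possibly for technical reasons.

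DNA in the nucleus is wrapped around histones, and the enzymes described here change how tightly. Remodellers spend ATP to slide, space or evict nucleosomes, acetyltransferases add acetyl groups that loosen the wrapping, and deacetylases and sirtuins remove them. Lysine demethylases erase methyl marks of active or silent genes, while PRC2 writes a silencing methyl mark. In heart muscle, class IIa deacetylases are known to hold back transcription factors of the Mef2 family, and the SWI/SNF remodeller is needed for cardiac development.

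Levels are CPM, the count of a gene relative to library totals scaled by the TMM method, and are listed in the order of replicates 1, 2 and 3. The knocked-down gene, Eif3m, stood at 137, 136 and 141 CPM in the control libraries, while the eIF3m libraries had 91.7, 83.9 and 87.3 CPM, all lower. Its log2 fold change was -0.64 ± 0.05 (SE of the fit; adjusted p = 1.41e-07). Library totals ran from 2156186 counts in eIF3m replicate 2 to 10061575 in eIF3m replicate 1. Of 14 cardiomyocyte markers only 4 exceeded 3 counts in every library (Tnnt2, Ttn, Pln and Atp2a2), and the myosin genes Myh7, Myl2 and Myl3 never did. The summed level of the 14 was 1174 to 1185 CPM in controls and 680 to 696 CPM with eIF3m siRNA. Most of it was Atp2a2, from 762 ± 2.54 to 521 ± 15.9 CPM, and Tnnt2, from 365 ± 8.84 to 152 ± 8.39 CPM (SD, n = 3). Fibroblast markers summed to 15761 to 16258 CPM and to 16966 to 17723 CPM, and of 8 tested 5 rose and 2 fell (Thy1 and Ddr2). Without eIF3m replicate 1 the counts were 4 and 3, as Dcn was not called and Col1a2 fell. Smooth muscle and pericyte markers summed to 5654 to 5794 CPM and to 3695 to 3887 CPM, and of 7 tested 5 fell and 2 rose (Notch3 and Cspg4). Skeletal myoblast markers were present as well, at 288 to 299 CPM in controls and 223 to 250 CPM with eIF3m siRNA, most of it Cdh15, while Pax7 was at 0, and 5 of 6 tested fell, among them Myog from 19.3 ± 2.63 to 5.57 ± 0.73 CPM (SD, n = 3). Proliferation markers summed to 658 to 676 CPM in controls and 980 to 1014 CPM with eIF3m siRNA, and 11 of 12 rose. One library stood apart: blood and leukocyte markers summed to 5258 CPM in eIF3m replicate 1, 213 and 65.3 CPM in eIF3m replicates 2 and 3, and 58.0 to 90.7 CPM in controls. Endothelial markers reached 175 CPM there and 8.85 to 22.5 CPM elsewhere. Member counts are therefore also given without that library. In bulk RNA, fewer cells of a type and less RNA per cell cannot be told apart, and the part of a changed mixture of cells in the results below was not tested.

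With TMM scaling most chromatin genes of the set moved little, and the share that was called stayed near or under that of all genes. With upper-quartile scaling or none, the share that rose lay above it. By edgeR's quasi-likelihood test at an adjusted p under 0.05, 10 members rose (16.4% of the 61), beside 17.4% of all tested genes, and 9 fell (14.8%), beside 21.2%. The other 42 did not pass. The median size of change, sign ignored, was 0.13 on the log2 scale for members and 0.24 for all tested genes, and the signed medians were 0.03 and 0.01. Members and all genes were not matched in level. Called changes of at least 1.5-fold were seen for 3 members, all decreases (Hdac9, Kat2b and Chd3), where 5.81% of all tested genes fell and 6.81% rose by that much. The CPM of the groups did not overlap for 16 members that were higher with eIF3m siRNA (26.2%) and 13 that were lower (21.3%), beside 23.3% and 25.3% of all tested genes.

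Without eIF3m replicate 1, 9 members rose and 10 fell, beside 15.4% and 19.2% of all tested genes. Kdm7a and Smarcd1 then missed the threshold, while Kdm2a (0.13, adjusted p = 0.0471) and Hdac7 (-0.13, adjusted p = 0.0411) passed it. The balance of rises and decreases changed with upper-quartile scaling and with no scaling. With DESeq2 size factors in edgeR it stayed as with TMM: 10 members rose and 9 fell, beside 2268 and 2651 of all tested genes. TMM factors were 0.948 to 0.953 in controls and 1.04 to 1.06 with eIF3m siRNA. With upper-quartile scaling 20 members rose (32.8%, beside 23.7% of all tested genes) and 7 fell (11.5%, beside 16.7%). Without any factor the median of all genes moved up by 0.14, and 29 members rose (47.5%, beside 32.4%) and 6 fell (9.84%, beside 13.2%). Rises made up 52.6% of the calls with TMM, 74.1% with upper-quartile scaling and 82.9% with none.

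**Figure D1:**
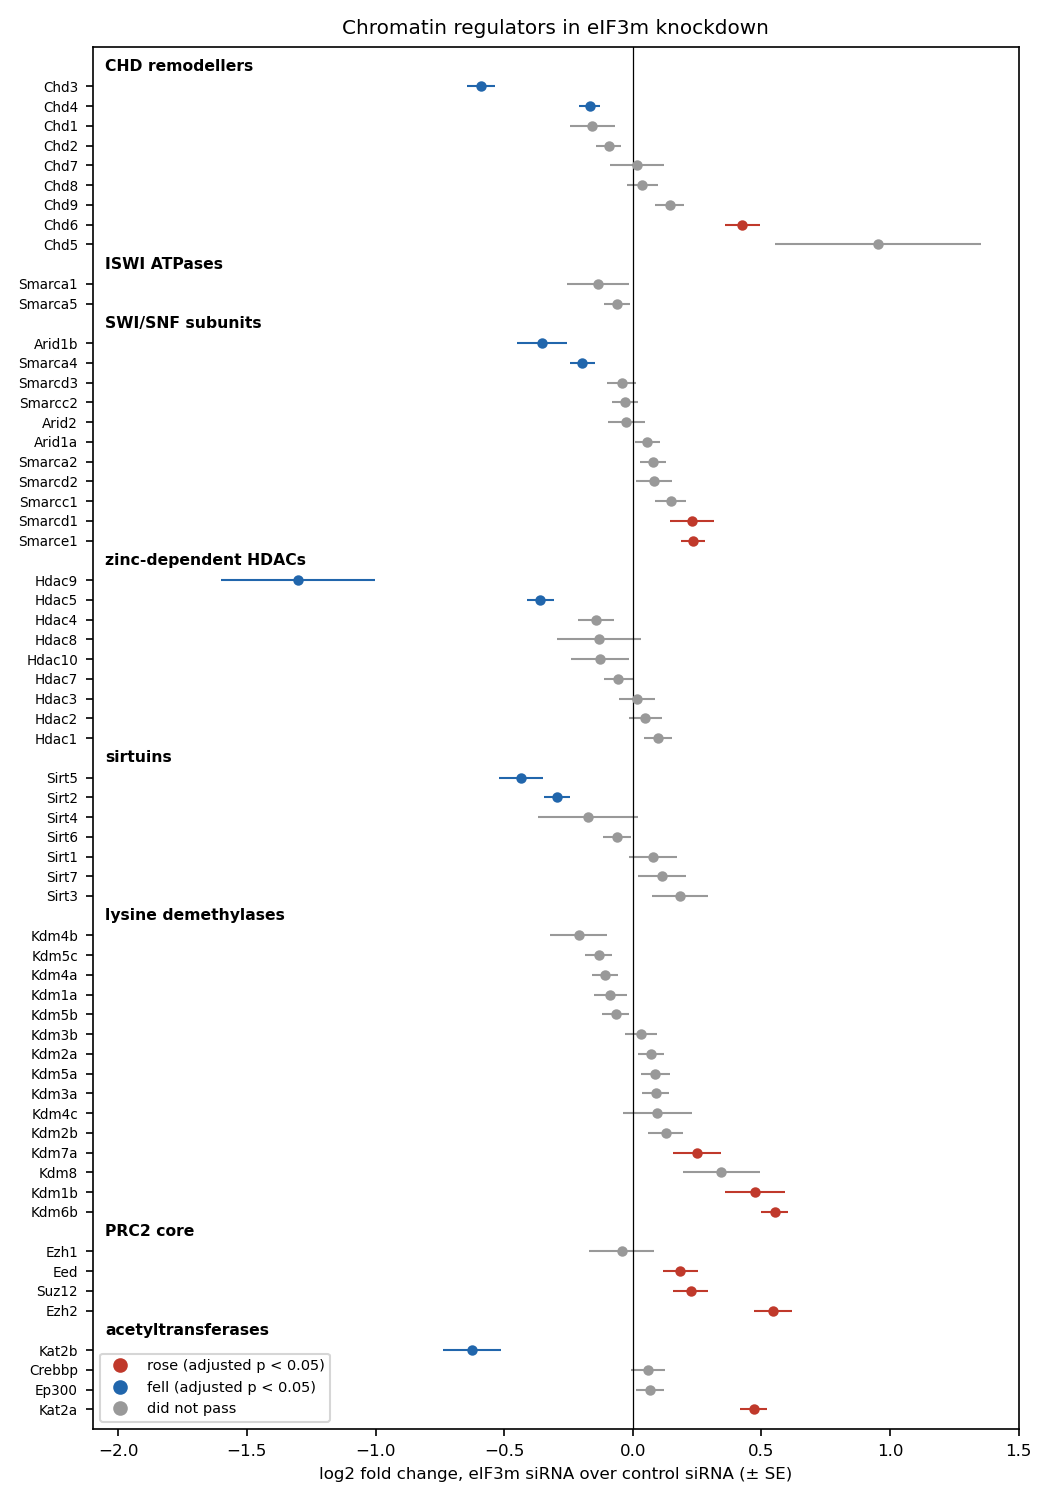
Log2 fold change, eIF3m siRNA over control siRNA, of each tested member (points, horizontal axis) with the SE of the fit (bars), ordered by role. Red (risen) and blue (fallen) points passed edgeR's test at an adjusted p under 0.05; Hdac9 lies farthest to the left at -1.30 and Chd5, not called, farthest to the right at 0.95.

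Of the 4 PRC2 core genes, the catalytic Ezh2 and its partners Suz12 and Eed rose, beside 17.4% of all tested genes. The alternative catalytic gene, Ezh1, did not pass. Ezh2, the methyltransferase found mostly in dividing cells, was at 37.1, 35.6 and 37.1 CPM in controls and 52.2, 59.2 and 51.9 CPM with eIF3m siRNA. Every eIF3m library lay above every control, at a log2 fold change of 0.54 ± 0.07 (adjusted p = 2.68e-05). Suz12, which holds the complex together, was at 57.6, 61.0 and 56.2 CPM and then 62.8, 71.1 and 72.3 CPM. Its groups did not overlap either (0.22 ± 0.07, adjusted p = 0.0161), but it missed the threshold without control replicate 3 (0.20, adjusted p = 0.0659) or eIF3m replicate 3 (0.16, adjusted p = 0.121). Eed, which reads the mark that PRC2 writes, was at 79.5, 69.7 and 71.7 CPM and then 79.9, 95.4 and 81.7 CPM. The highest control and the lowest eIF3m library were nearly level, and the call (0.18 ± 0.07, adjusted p = 0.0442) was lost without control replicate 2 (0.15), control replicate 3 (0.17), eIF3m replicate 2 (0.14) or eIF3m replicate 3 (0.20). The Eed call was also lost with limma-voom, with DESeq2 and with a block for replicate number. Ezh1, the form of resting cells, was at 19.5, 16.5 and 19.5 CPM and then 18.3, 20.8 and 16.3 CPM. These groups overlapped (-0.04 ± 0.13, adjusted p = 0.820), and the sign turned with upper-quartile scaling (0.02) and with none (0.10). At an unadjusted p under 0.05, 2833 of all 12724 tested genes were higher and 3145 lower by edgeR. Of all these genes limma-voom called 2306 risen and 2774 fallen, and DESeq2 1708 and 2455. By edgeR 0 of the 4 PRC2 genes fell, at an unadjusted p under 0.05 as well. For the 4, limma-voom and DESeq2 each called 2 risen and 0 fallen. The proliferation markers that rose beside these genes included Mki67, at 156 ± 1.11 CPM in controls and 274 ± 7.56 CPM with eIF3m siRNA (SD, n = 3). Their part in the PRC2 values was not tested.

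Promoter windows were searched because members that rose together can share sequence. RefSeq windows of assembly GRCr8, from 250 bases before to 50 after the start, were found for 58 of the 68 members. The E2F words TTTCCCGC, TTTGGCGC, TTCCCGCC and TTCGCGCC, which can overlap one another, were searched on both strands, as were CCAAT and the cell-cycle word TTTGAA. An E2F word was in the windows of 4 of 9 risen genes (Ezh2, Suz12, Smarcd1 and Smarce1), 0 of 9 fallen genes and 2 of 36 genes that were not called (Arid1a and Kdm3b), beside 3.75% of 27457 genes with a window. CCAAT was in the windows of 5 risen, 7 fallen and 11 uncalled genes, beside 39.6% of all genes, and TTTGAA in those of 1, 1 and 5, beside 19.4%. Most letters of the E2F words are G or C, and the windows compared differed in these. Counted over windows, the median share was 59.3% for risen, 61.7% for fallen and 63.0% for uncalled members, beside 51.7% for all windows. Genes with several windows weigh more in these medians. Those of Kdm7a, which rose, ran from 30.7% to 51.0%, and those of Chd9, uncalled, from 31.7% to 75.3%. With an E2F word, Ezh2 was at 64.7%, Suz12 at 71.3%, Smarcd1 at 73.0%, Smarce1 at 65.0%, Arid1a at 80.3% and Kdm3b at 76.0%. The part of the G and C content in the matches was not tested. These matches describe letters and are no evidence of binding. The 250 bases before the start are printed 5′ to 3′ along the gene for the PRC2 genes that rose, for Smarce1 as another risen gene with an E2F word, and for Hdac5 as a fallen gene without one. Capitals mark CCAAT (or ATTGG, its reverse complement) and E2F words. The E2F word of Ezh2 and the CCAAT word of Eed lie in the 50 bases after the start and are not printed. Locations in GRCr8 are chr4:77687184-77687433 (minus strand) for Ezh2, chr10:65464719-65464968 (plus strand) for Suz12, chr1:153307501-153307750 (minus strand) for Eed, chr10:84676174-84676423 (minus strand) for Smarce1 and chr10:87688055-87688304 (minus strand) for Hdac5.
Ezh2: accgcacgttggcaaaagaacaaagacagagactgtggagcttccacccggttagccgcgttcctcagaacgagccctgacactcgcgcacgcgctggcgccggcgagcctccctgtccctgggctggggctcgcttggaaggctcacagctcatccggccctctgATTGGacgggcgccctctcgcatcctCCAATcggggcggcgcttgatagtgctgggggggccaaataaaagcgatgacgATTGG
Suz12: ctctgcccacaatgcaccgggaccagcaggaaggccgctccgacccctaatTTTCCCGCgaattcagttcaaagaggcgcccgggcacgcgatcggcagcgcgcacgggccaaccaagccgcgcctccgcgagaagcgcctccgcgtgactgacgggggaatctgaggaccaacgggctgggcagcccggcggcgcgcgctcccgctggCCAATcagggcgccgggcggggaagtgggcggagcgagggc
Eed: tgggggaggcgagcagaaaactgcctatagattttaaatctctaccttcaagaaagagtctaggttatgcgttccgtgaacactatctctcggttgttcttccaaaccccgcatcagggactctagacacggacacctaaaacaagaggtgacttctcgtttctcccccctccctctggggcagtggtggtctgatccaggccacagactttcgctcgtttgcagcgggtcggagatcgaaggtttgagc
Smarce1: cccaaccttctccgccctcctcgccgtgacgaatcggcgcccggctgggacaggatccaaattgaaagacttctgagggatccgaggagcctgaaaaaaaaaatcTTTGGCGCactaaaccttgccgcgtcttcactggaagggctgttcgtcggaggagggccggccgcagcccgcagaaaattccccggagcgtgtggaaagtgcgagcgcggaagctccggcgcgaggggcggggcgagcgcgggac
Hdac5: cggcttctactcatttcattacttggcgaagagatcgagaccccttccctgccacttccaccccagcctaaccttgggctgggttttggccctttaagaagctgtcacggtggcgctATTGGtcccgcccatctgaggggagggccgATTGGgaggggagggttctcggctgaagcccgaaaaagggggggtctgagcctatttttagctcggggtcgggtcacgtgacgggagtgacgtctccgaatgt

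Among the acetyltransferases the paralogues Kat2a and Kat2b moved in opposite directions, while Ep300 and Crebbp did not pass. With no scaling factors 3 of the 4 rose and 1 fell, beside 32.4% and 13.2% of all tested genes. Kat2a, also known as GCN5 and a catalytic subunit of the SAGA coactivator, was at 119, 120 and 112 CPM in controls and 154, 168 and 166 CPM with eIF3m siRNA (0.47 ± 0.05, adjusted p = 4.90e-06). Kat2b, also known as PCAF and a coactivator of muscle differentiation factors, was at 23.8, 22.6 and 21.1 CPM and then 14.6, 13.7 and 14.9 CPM (-0.63 ± 0.11, adjusted p = 4.35e-04). Neither gene's groups overlapped, and both calls were kept in all 16 alternatives run. Ep300, a coactivator with a broad range of histone targets, was at 121, 116 and 115 CPM and then 118, 122 and 128 CPM (0.07 ± 0.05, adjusted p = 0.354). Crebbp, its paralogue, was at 54.7, 54.8 and 54.2 CPM and then 56.1, 64.0 and 54.3 CPM (0.06 ± 0.07, adjusted p = 0.579).

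CHD remodellers carry chromodomains. Chd3 and Chd4 fell (22.2%), Chd6 rose (11.1%) and 6 of the 9 did not pass. Of all tested genes 21.2% fell and 17.4% rose. With no scaling factors 4 of the 9 rose and 1 fell, beside 32.4% and 13.2% of all tested genes. Chd3, an ATPase of the NuRD complex, which joins remodelling to deacetylation, was at 201, 208 and 208 CPM in controls and 144, 138 and 128 CPM with eIF3m siRNA. The groups stood well apart (-0.59 ± 0.05, adjusted p = 5.48e-07). Chd4, the other main NuRD ATPase, was at 550, 550 and 570 CPM and then 484, 527 and 479 CPM (-0.17 ± 0.04, adjusted p = 0.00448). That smaller decrease missed the threshold with upper-quartile scaling (-0.10, adjusted p = 0.0662) and with none (-0.02, adjusted p = 0.687). Chd6, a remodeller linked to oxidative stress, was at 49.4, 49.6 and 54.0 CPM and then 66.0, 63.6 and 73.7 CPM, without overlap (0.43 ± 0.07, adjusted p = 1.45e-04).

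The uncalled CHD genes were Chd9 (0.14 ± 0.06), Chd2 (-0.09 ± 0.05), Chd1 (-0.16 ± 0.09), Chd8 (0.04 ± 0.06), Chd7 (0.02 ± 0.10) and Chd5. Chd1, which binds a methyl mark of active promoters, passed without eIF3m replicate 3 (-0.29, adjusted p = 0.0121). Chd5, known mainly from neurons, was low, at 1.70, 0.638 and 1.35 CPM in controls and 2.10, 2.21 and 2.76 CPM with eIF3m siRNA. Its groups did not overlap, but at that depth the fold change of 0.95 ± 0.40 did not pass (adjusted p = 0.0739). The ISWI ATPases Smarca5 (-0.06 ± 0.05) and Smarca1 (-0.14 ± 0.12), which space nucleosomes evenly, were not called. For this pair edgeR called 0 risen and 0 fallen, as it did at an unadjusted p under 0.05 and as limma-voom and DESeq2 did, and both signs turned without scaling factors (0.08 and 0.01).

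SWI/SNF, or BAF, is a large remodeller assembled around either of the ATPases Smarca4 and Smarca2. Of its 11 tested subunits 2 rose (18.2%) and 2 fell (18.2%), beside 17.4% and 21.2% of all tested genes. With upper-quartile scaling 5 rose and 1 fell, beside 23.7% and 16.7% of all. With none 6 rose and 0 fell, beside 32.4% and 13.2%. Smarca4, also called BRG1, was at 114, 118 and 114 CPM in controls and 102, 100 and 99.7 CPM with eIF3m siRNA (-0.20 ± 0.05, adjusted p = 0.00564). The groups did not overlap, but the call was lost with upper-quartile scaling (-0.13, adjusted p = 0.0509), with none (-0.05, adjusted p = 0.412) and after thinning all libraries to the smallest (-0.11, adjusted p = 0.344). Smarca2, also called BRM, was at 136, 142 and 138 CPM and then 147, 140 and 150 CPM (0.08 ± 0.05, adjusted p = 0.233), with overlapping groups. Arid1b, a DNA-binding subunit, was at 34.2, 33.8 and 34.0 CPM and then 26.4, 32.2 and 24.5 CPM. Controls were tight and eIF3m replicate 2 lay close to them (-0.35 ± 0.10, adjusted p = 0.00998). The Arid1b call was lost without eIF3m replicate 3 (-0.28, adjusted p = 0.0704) and without scaling factors (-0.21), and the sign turned after thinning (0.07).

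Smarce1, a subunit with a high-mobility-group domain, was at 174, 171 and 171 CPM in controls and 206, 204 and 198 CPM with eIF3m siRNA, clearly separated (0.23 ± 0.05, adjusted p = 0.00104). Smarcd1, a scaffold subunit, was at 56.4, 48.6 and 60.7 CPM and then 64.1, 74.6 and 61.2 CPM. Its nearest libraries almost met, and the call (0.23 ± 0.08, adjusted p = 0.0411) was lost without control replicate 1 (0.25), control replicate 2 (0.15), eIF3m replicate 1 (0.25) or eIF3m replicate 2 (0.18). The Smarcd1 call was also lost with DESeq2 and with a block for replicate number. The other subunits were not called: Smarcc1 (0.15 ± 0.06), Smarcd2 (0.08 ± 0.07), Arid1a (0.06 ± 0.05), Smarcd3, the form enriched in heart and muscle (-0.04 ± 0.06), Smarcc2 (-0.03 ± 0.05) and Arid2 (-0.03 ± 0.07). Of these, the negative values of Smarcd3, Smarcc2 and Arid2 became positive with upper-quartile scaling or none.

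**Figure D2:**
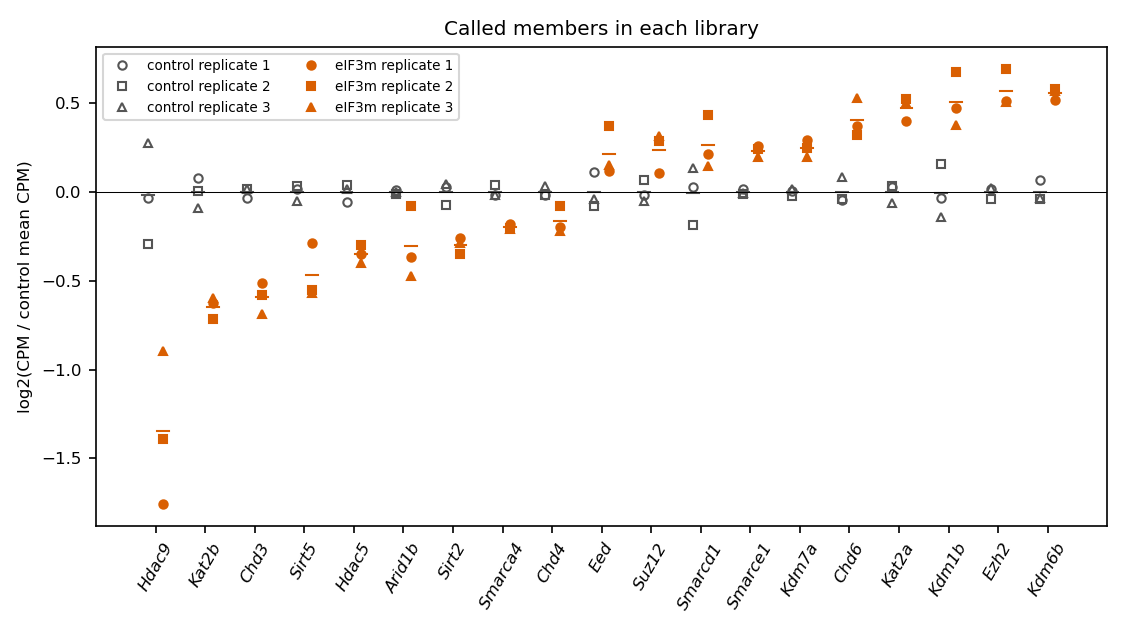
Level of each called member (horizontal axis) in each of the 6 libraries, as log2 of its CPM over the mean CPM of the 3 controls (vertical axis); open symbols are control libraries, filled symbols eIF3m libraries, and dashes the group means. Hdac9 lies lowest in the eIF3m libraries, and Arid1b, Eed and Smarcd1 have eIF3m libraries close to controls.

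Of the 9 tested zinc-dependent deacetylases, Hdac5 and Hdac9 fell (22.2%), beside 21.2% of all tested genes. Both are of class IIa, whose proteins shuttle between nucleus and cytoplasm and bind Mef2 factors. Hdac5 was at 107, 114 and 112 CPM in controls and 87.0, 90.1 and 83.9 CPM with eIF3m siRNA (-0.36 ± 0.05, adjusted p = 6.97e-05). Hdac9 was at 5.66, 4.72 and 7.01 CPM and then 1.72, 2.21 and 3.12 CPM (-1.30 ± 0.30, adjusted p = 0.00290). Both genes were separated between the groups, and Hdac9 was the only called member that changed at least 2-fold. The Hdac9 value ran from -1.65 without eIF3m replicate 3 to -1.002 without eIF3m replicate 1 and was called in both. Hdac4, another class IIa gene, was at 53.8, 49.1 and 51.1 CPM and then 49.0, 44.6 and 44.5 CPM (-0.14 ± 0.07, adjusted p = 0.126), and Hdac7 was at -0.06 ± 0.06. The summed cardiomyocyte (mostly Atp2a2 and Tnnt2), smooth muscle and skeletal myoblast (mostly Cdh15) markers were lower beside these genes and Kat2b. Of the smooth muscle list, though, Notch3 and Cspg4 rose, and the part of such cells was not tested.

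The class I deacetylases, which act in nuclear corepressor complexes, did not pass. Hdac1 was at 126, 126 and 126 CPM in controls and 133, 147 and 130 CPM with eIF3m siRNA (0.10 ± 0.05, adjusted p = 0.168), without overlap. Hdac2 was at 78.9, 87.9 and 93.9 CPM and then 91.2, 86.1 and 90.8 CPM (0.05 ± 0.06, adjusted p = 0.583), with the eIF3m values inside the control range. Hdac3, which acts in nuclear receptor corepressor complexes, was at 0.02 ± 0.07 and Hdac8 at -0.13 ± 0.16. Outside class I, Hdac10, a polyamine deacetylase, was at -0.13 ± 0.11 and was not called either. By edgeR 0 deacetylases rose, beside 17.4% of all tested genes. The count was also 0 at an unadjusted p under 0.05, and limma-voom and DESeq2 gave 0. The median of the 9 was -0.13. Without scaling factors it was 0.02, and 2 rose and 2 fell, beside 32.4% and 13.2% of all tested genes.

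Sirtuins are deacylases that consume NAD. Sirt2 and Sirt5 fell (28.6% of the 7), beside 21.2% of all tested genes, and the other 5 did not pass. Sirt2, mainly a cytoplasmic tubulin and histone deacetylase, was at 253, 237 and 256 CPM in controls and 208, 195 and 204 CPM with eIF3m siRNA (-0.29 ± 0.05, adjusted p = 2.67e-04). Sirt5, a mitochondrial enzyme that removes succinyl groups, was at 47.1, 47.6 and 45.0 CPM and then 38.1, 31.8 and 31.4 CPM (-0.43 ± 0.09, adjusted p = 9.39e-04). Both were without overlap and were called in all alternatives run. Sirt1, the nuclear sirtuin most studied in stress responses, was at 29.8, 35.0 and 37.7 CPM and then 35.9, 37.5 and 35.9 CPM (0.08 ± 0.09, adjusted p = 0.542), with overlap. Sirt3 (0.18 ± 0.11), the main mitochondrial deacetylase, Sirt4 (-0.17 ± 0.20), Sirt6 (-0.06 ± 0.06) and Sirt7 (0.12 ± 0.09) were not called. By edgeR 0 sirtuins rose, beside 17.4% of all tested genes. The count was 0 as well at an unadjusted p under 0.05 and by limma-voom and DESeq2. The median of the 7, -0.06, was 0.01 with upper-quartile scaling and 0.08 with none.

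Of 15 tested lysine demethylases 3 rose (20%) and 0 fell by edgeR, beside 17.4% and 21.2% of all tested genes. At an unadjusted p under 0.05, 2 fell, and limma-voom called 1 and DESeq2 0 fallen. The count that rose was 3 with DESeq2 size factors in edgeR as well, but 8 with upper-quartile scaling and 9 with none. Of all tested genes 23.7% rose with upper-quartile scaling and 32.4% with none. Kdm6b, also called JMJD3, erases the mark that PRC2 writes and is induced by inflammatory and stress signals. It was at 100, 93.0 and 93.5 CPM in controls and 137, 143 and 142 CPM with eIF3m siRNA, fully separated (0.55 ± 0.05, adjusted p = 7.45e-07). Kdm1b, also called LSD2, which acts on active-gene marks, was at 17.8, 20.4 and 16.6 CPM and then 25.4, 29.1 and 23.8 CPM (0.48 ± 0.12, adjusted p = 0.00453). Its groups did not overlap, and the call was lost after thinning (adjusted p = 0.0932). Kdm7a, an eraser of silencing marks, was at 23.2, 22.7 and 23.4 CPM and then 28.3, 27.4 and 26.5 CPM. Although separated, its value of 0.25 ± 0.09 (adjusted p = 0.0468) was lost in 10 of 16 alternatives, among them the removal of any single library, at 0.22 without eIF3m replicate 1 to 0.28 without eIF3m replicate 3.

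Kdm1a, also called LSD1, the partner of CoREST and of NuRD, was at 80.1, 79.9 and 88.1 CPM in controls and 72.7, 77.7 and 83.6 CPM with eIF3m siRNA, with overlap (-0.09 ± 0.06, adjusted p = 0.308). Kdm5c (-0.13 ± 0.05, adjusted p = 0.0594) was called fallen in 5 of 16 alternatives: no filter, robust dispersion, the replicate block, limma-voom and the fit without eIF3m replicate 2 (-0.17). Among libraries left out, Kdm8 (0.34 ± 0.15) passed without control replicate 1 (0.48), Kdm2b (0.13 ± 0.07) without control replicate 2 (0.20) and Kdm2a (0.07 ± 0.05) without eIF3m replicate 1 (0.13). The Kdm4 family, erasers of a silencing and an elongation mark, held Kdm4a (-0.11 ± 0.05), Kdm4b (-0.21 ± 0.11) and Kdm4c (0.09 ± 0.13). The Kdm5 family, erasers of the active-promoter mark, also held Kdm5a (0.09 ± 0.06) and Kdm5b (-0.07 ± 0.05). Kdm3a (0.09 ± 0.05), a demethylase induced by hypoxia, and Kdm3b (0.03 ± 0.06) were not called.

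**Figure D3:**
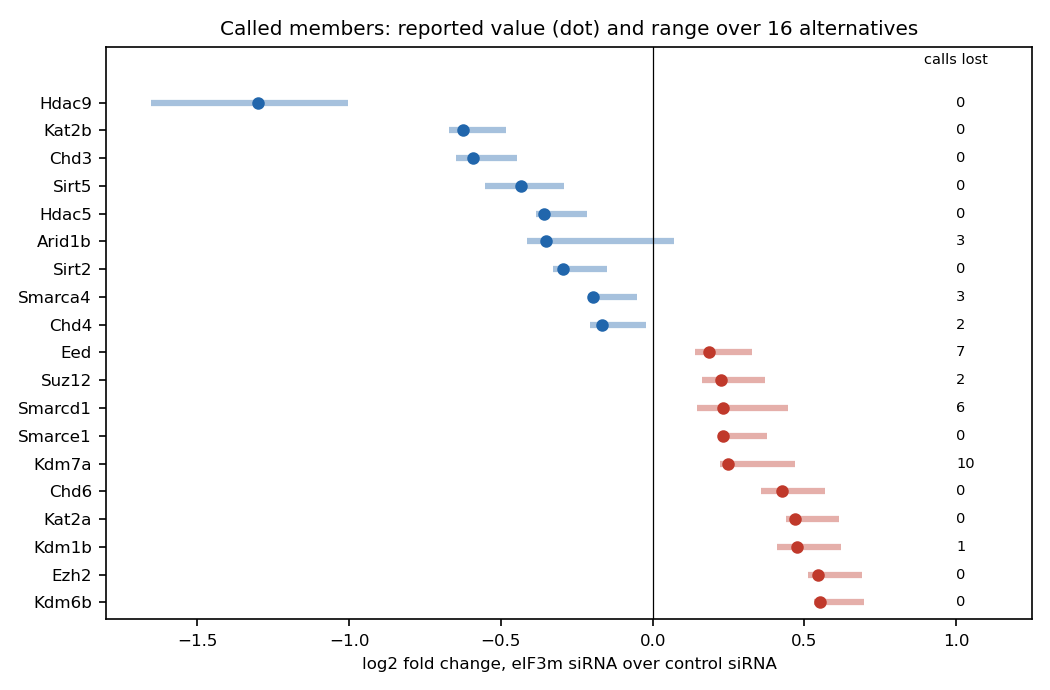
Log2 fold change of each called member in the fit reported (dot) with the range over the alternatives that tested it (bar), and to the right the number of alternatives that lost the call. Arid1b is the called member whose range crosses 0, reaching 0.07 after thinning.

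Members that can take the same place in a complex or catalyse the same step were compared by the ratio of their counts within each library, which does not depend on the scaling between libraries. Of 13 pairs, 7 did not overlap between the groups. Single genes gave 23.3% higher and 25.3% lower without overlap, and the share among ratios of other gene pairs was not computed. For each of the 7 the two-sided exact permutation test over libraries gave p = 0.1, the smallest that 3 against 3 allows, and 0.186 after adjustment over the 13. The widest shift was that of Kat2b over Kat2a, whose log2 ratio went from -2.38 ± 0.04 to -3.49 ± 0.10 (SD, n = 3), a fold of 0.462. Ezh1 over Ezh2 went from -0.99 ± 0.11 to -1.56 ± 0.09, and Chd3 over Chd4 from -1.44 ± 0.03 to -1.86 ± 0.10. Smarca2 over Smarca4 went the other way, from 0.27 ± 0.01 to 0.53 ± 0.06. Relative counts of the SWI/SNF ATPases thus moved toward Smarca2, by a fold of 1.20, and those of the NuRD ATPases toward Chd4. Arid1b over Arid1a changed by -0.36, Smarcc2 over Smarcc1 by -0.21 and Kdm5b over Kdm5a by -0.18. The other 6 pairs overlapped: Smarcd3 over Smarcd1 (-0.32), Hdac5 over Hdac4 (-0.19), Smarca1 over Smarca5 (-0.04), Crebbp over Ep300 (0.02), Kdm3a over Kdm3b (0.05) and Hdac1 over Hdac2 (0.07). A ratio shows unequal change of 2 genes and does not say which of them moved.

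**Figure D4:**
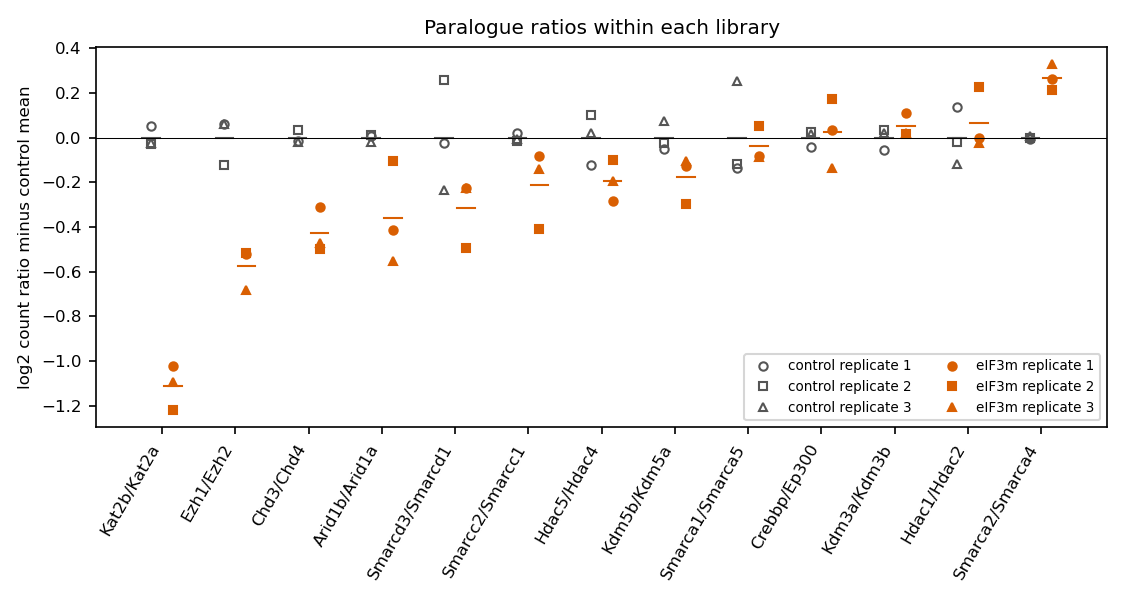
Log2 ratio of the counts of 2 related members within each library, relative to the mean of the 3 control libraries, for 13 pairs; open symbols are control libraries, filled symbols eIF3m libraries and dashes group means. Kat2b over Kat2a lies lowest in the eIF3m libraries, 1.11 under controls on average, and Smarca2 over Smarca4 lies above them.

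Genes that work with the members showed calls in both directions in most lists. Beside these lists, 17.4% of all tested genes rose and 21.2% fell, and 15.4% and 19.2% did without eIF3m replicate 1. Of 9 NuRD partners, Mta1 rose (0.35 ± 0.05, adjusted p = 4.20e-05) and Mbd2, which binds methylated DNA, fell (-0.19 ± 0.06, adjusted p = 0.0196), and without eIF3m replicate 1 the counts were 3 and 1. Of 14 tested partners of other deacetylase corepressors, 3 rose and 1 fell, and the scaffold Sin3a (0.39 ± 0.08) and Tbl1x (0.21 ± 0.05) were among those that rose. Of 14 SWI/SNF accessory subunits, 3 rose and 3 fell, and those with the lowest p in each direction were Bcl7c (0.40 ± 0.08), Brd7 (0.20 ± 0.06), Bcl7b (-0.23 ± 0.06) and Phf10 (-0.19 ± 0.05). Without eIF3m replicate 1 Phf10 was not called and 1 fell. Of 8 ISWI partners, Bptf, the large subunit of NURF, fell from 90.5 ± 5.48 to 73.6 ± 1.43 CPM (-0.29 ± 0.06, adjusted p = 7.87e-04), and edgeR called 0 risen, with 1 at an unadjusted p under 0.05 and 0 by limma-voom and DESeq2. Without eIF3m replicate 1 Baz2b rose (0.38, adjusted p = 0.00894). Of 20 INO80, SRCAP and other remodellers 4 rose and 0 fell by edgeR, with 1 fallen at an unadjusted p under 0.05 and 0 by limma-voom and DESeq2. Without eIF3m replicate 1, Hells, at 0.480 to 2.94 CPM over all libraries, fell (-1.89, adjusted p = 0.0367). Ercc6 (0.54 ± 0.09) and Hltf (0.57 ± 0.11), which act in DNA repair and damage tolerance, led them.

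Writers of histone marks, Polycomb partners and other JmjC proteins outside the member set were called as follows. Of all tested genes 17.4% rose and 21.2% fell. Of 16 other acetyltransferase genes, Brpf1, a scaffold of the MOZ complex, fell from 203 ± 7.86 to 153 ± 2.75 CPM (-0.40 ± 0.05, adjusted p = 1.10e-05) and Tada3, a SAGA adaptor that works with Kat2a, fell as well (-0.39 ± 0.08). Tada2a rose (0.30 ± 0.11), though not without eIF3m replicate 1. Of 20 Polycomb partners 3 rose and 2 fell, with Cbx2 (0.59 ± 0.16) and Mtf2 (0.54 ± 0.17) higher and Cbx6 (-0.30 ± 0.05) lower. Of 24 lysine methyltransferases 8 rose and 3 fell, with a median of 0.16. Suv39h1, a writer of the heterochromatin mark (0.69 ± 0.12, adjusted p = 2.19e-04), and Kmt2b (0.28 ± 0.05) rose, and Kmt5a (-0.37 ± 0.05) and Kmt5b (-0.38 ± 0.07), which methylate histone H4, fell. Of 6 other JmjC proteins, Hr rose (1.27 ± 0.32) and Phf2 fell (-0.19 ± 0.06), the latter not without eIF3m replicate 1. The medians of the ISWI partners (-0.02) and of the other JmjC proteins (-0.06) became positive without scaling factors, at 0.12 and 0.09. With no scaling factors all tested genes shifted toward rises (32.4% risen, 13.2% fallen, median 0.16), and so did the lists. Then 17 lysine methyltransferases rose and 2 fell (median 0.30), as did 6 and 0 NuRD partners and 7 and 0 corepressor partners. So did 6 and 0 SWI/SNF accessory subunits, 3 and 1 ISWI partners and 10 and 0 other remodellers. Likewise 4 other acetyltransferase genes rose and 2 fell, 9 and 1 Polycomb partners, and 2 and 0 other JmjC proteins.

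The 7 members that were not tested had too few counts. Smarcb1, a core SWI/SNF subunit, had 1 count in control replicate 3, 2 in eIF3m replicate 3 and 0 in the other libraries. Hdac6, a cytoplasmic tubulin deacetylase, had 1 count in control replicate 3 alone, and Hdac11 had 1 in eIF3m replicate 1 alone. Smarce1l had 1 count in eIF3m replicate 3, and Kdm4d was listed at 0 throughout. Kdm6a, the X-linked relative of Kdm6b, had 6 counts in eIF3m replicate 1 and Kdm5d, the Y-linked relative of Kdm5c, had 17 there, and both were at 0 in the other 5 libraries. The floor of 3 counts corresponded to 0.286 CPM in the largest library and 1.32 CPM in the smallest, so lower levels were not detectable. Since the annotation behind the counts is not known here, a count near 0 for genes that most cells use does not show that they were silent.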

How the data were processed

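RNA sequencing counts of 6 rat libraries, 3 per group, were used. The authors deposited 1 whole-number count per gene and library with no normalisation. The submitters' processing notes name Trimmomatic 0.40, HISAT2 2.2.1, featureCounts, DESeq2, limma and build rn6, without role or order. For the annotation, strand and multi-mapping settings nothing was given in the sources, so paralogues and overlapping genes are uncertain. Of 31038 rows, 27 were symbols turned into dates (0.203% to 0.216% of counts) and were left out.

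The test was that of edgeR 4.0.16 (R 4.3.3): filterByExpr (min.count 10, min.total.count 15), TMM scaling, the two-sided quasi-likelihood F-test without covariates, and Benjamini-Hochberg adjustment over 12724 genes. Fold changes (log2) set eIF3m siRNA over control siRNA, and SE is the absolute log2 fold change over the square root of F. Ratios of members had 0.5 added to each count. Genes were not compared in level because transcript lengths were not used. Alternatives used DESeq2 1.42.0, limma-voom (limma 3.58.1), other scaling, filters and dispersion, a replicate block, thinning to 2151671 counts, and each library left out. The edgeR step was tested on simulated data. The floor of 3 counts covers counting error only.

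The members and lists were chosen with earlier results of these data known. All tested members are named. Full values are given for up to 3 risen and 3 fallen members per role and for Ezh1, Ezh2, Hdac1, Hdac2, Hdac4, Hdac5, Sirt1, Smarca2, Smarca4, Chd4, Kdm1a, Ep300 and Crebbp, and up to 2 risen and 2 fallen genes by lowest p are named in each partner list. A few genes that this rule takes are not reported here. Chd5, Hdac9 across alternatives Baz2b, Hells, marker genes and calls that depend on a library were singled out after values were seen. Promoter windows come from RefSeq assembly GRCr8, which differs from rn6, so no other coordinates are given.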

Additional observations from a re-analysis of the deposited data

How the results depend on the processing

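Of the 19 member calls, 11 were kept in each of the 16 alternatives that tested them (Hdac9 was too low for the stricter filter and for thinning): Kdm6b, Smarce1, Kat2a, Chd6 and Ezh2 among rises and Sirt2, Chd3, Hdac5, Sirt5, Hdac9 and Kat2b among decreases. Over 972 member values under alternatives, 849 kept direction and side of the threshold, 33 lost the call, 45 gained one and 45 changed sign. Scaling moved most. Members risen numbered 20 with upper-quartile scaling and 29 with none, and all genes risen and fallen 4126 and 1684 with none and 1351 and 1798 after thinning. With upper-quartile scaling the sign turned for Ezh1 (0.0249), Kdm5b (0.0013), Smarca5 (0.0050), Smarcd3 (0.0243), Smarcc2 (0.0377), Sirt6 (0.0067), Arid2 (0.0422) and Hdac7 (0.0119). With no scaling factors it turned for these, at 0.101, 0.0781, 0.0816, 0.1003, 0.114, 0.0827, 0.119 and 0.0879 in that order, and for Chd2 (0.0499), Kdm4a (0.0355), Kdm1a (0.0573), Hdac10 (0.0181), Hdac4 (0.0013), Kdm5c (0.0113), Hdac8 (0.0137) and Smarca1 (0.0090). Thinning turned Arid1b (0.0718), Hdac3 (-0.103), Chd7 (-0.0802), Smarcc2 (0.0511), Arid2 (0.0787) and Hdac7 (0.0379), and no filter turned Hdac3 (-0.0011) and Chd7 (-0.0012). Leaving out a library gave both signs, or a value at 0, for Ezh1 (-0.121 to 0.0424), Chd8 (-0.0239 to 0.0739), Kdm3b (-0.0261 to 0.117), Hdac3 (-0.0147 to 0.0434), Sirt1 (-0.0061 to 0.157), Hdac2 (-0.0144 to 0.109), Chd7 (-0.0595 to 0.0814), Arid2 (-0.0974 to 0.0540), Hdac7 (-0.125 to 0.00012), Smarca1 (-0.205 to 0.0045) and, as log2 differences, for paralogue ratio Smarca1/Smarca5 (-0.106 to 0.0894), paralogue ratio Hdac1/Hdac2 (-0.0139 to 0.135) and paralogue ratio Crebbp/Ep300 (-0.0512 to 0.103). Members risen ran from 7 to 9 and fallen from 9 to 10 without a library. Except where scaling or fewer counts or samples are the alternative itself, the cause was not tested. Same-numbered libraries did not deviate together (correlations 0.0304, -0.0054 and 0.0077), and with the replicate block 7 members rose and 10 fell, and 2123 and 2632 of all genes. DESeq2 called 7 and 9. The 2156186 counts of eIF3m replicate 2 limit what can be seen for low genes such as Hdac9 and Chd5.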

Other observations

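Counts of Y-linked genes were found in a single library, as noticed after the values were seen. In eIF3m replicate 1, Kdm5d had 17 counts (1.62 CPM), Eif2s3y had 18 (1.72 CPM) and Ddx3y had 1. All 3 were at 0 in the other 5 libraries, and Usp9y was at 0 in all 6. Kdm6a had its 6 counts (0.572 CPM) in the same library, the one with 5258 CPM of blood and leukocyte markers.

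Promoter windows of the members were richer in G and C than those of all genes. The median was 59.3% for the 12 windows of risen members, 61.7% for the 9 of fallen members and 63.0% for the 52 of members that were not called, beside 51.7% for all 33469 windows. Genes with several windows, such as Kdm7a among risen and Chd9 among uncalled members, weigh more in these medians.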
